A study of Mus musculus with 18 samples.

Results

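Glycerophosphodiesterases form an enzyme family that cuts phosphodiester bonds in glycerol-based lipids and their headgroups. Gdpd3 and 3 of its relatives, Gdpd1, Gdpd5 and Gde1, were followed by symbol through RNA sequencing of mouse spleen, 4 of the 19326 entries of the expression table. They were chosen with the levels of Gdpd3 in these same libraries known, because that gene was high in some libraries and under 1 FPKM in others, so its levels are described below without a test. Levels are in FPKM, a read level corrected for transcript length and library size (a unit read from the values, since the table names none), and all 4 reached the level required for testing, at least 1 FPKM in at least 3 libraries.

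The 18 libraries came from spleens of ICR mice, an outbred stock, aged 10 weeks, and formed 6 groups of 3. The HS_AOSFMT group had high fat diet and streptozotocin (STZ, a toxin of insulin-producing cells) and a faecal microbiota transplant (FMT) whose label names AOS at 10 mg/kg, and the HS_conFMT group had diet, STZ and a control FMT. The HS_AOS group had diet, STZ and AOS at 10 mg/kg, and the HS group had diet and STZ alone. The AOS group had AOS at 10 mg/kg without diet or STZ, and the control group had neither. The labels do not spell out AOS and do not say whether each library is a separate animal, so a p-value here reflects library-to-library spread, which may be technical.

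Gdpd3 encodes GDE7 and Gdpd1 encodes GDE4, both lysophospholipases D, which release lysophosphatidic acid, a signalling lipid read by G protein-coupled receptors, from lysophospholipids. Gde1 encodes a membrane phosphodiesterase of glycerophosphoinositol that can also release N-acylethanolamines, the lipid family that includes anandamide. Gdpd5 encodes GDE2, a cell surface enzyme that cuts the anchor of glycosylphosphatidylinositol-linked proteins such as RECK and was first studied in motor neuron development.

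Gdpd3 lies on the plus strand of chromosome 7 from 126766334 to 126775649 (GRCm38, GENCODE M21), between Mapk3 and Ypel3. On the same chromosome, Gde1 spans 118688545 to 118705778 on the minus strand and Gdpd5 spans 99381414 to 99461877 on the plus strand. Gdpd1 lies on the minus strand of chromosome 11 from 87033867 to 87074062. The stretches upstream of the annotated transcripts are shown 5′ to 3′ on the gene's own strand, because the gene with the variable level and 2 with steadier levels differ in their CpG content; RefSeq promoters of GRCm38.p6 were used, with annotated exons removed and CpG in capitals. They are chr7:126766164-126766333 (plus strand) for Gdpd3, chr11:87074138-87074256 (minus strand) for Gdpd1 and chr7:118705779-118705988 (minus strand) for Gde1, and Gdpd5 is named only.
Gdpd3: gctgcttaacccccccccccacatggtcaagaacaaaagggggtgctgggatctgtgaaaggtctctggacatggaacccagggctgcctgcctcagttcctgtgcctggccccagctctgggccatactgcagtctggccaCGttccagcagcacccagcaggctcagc
Gdpd1: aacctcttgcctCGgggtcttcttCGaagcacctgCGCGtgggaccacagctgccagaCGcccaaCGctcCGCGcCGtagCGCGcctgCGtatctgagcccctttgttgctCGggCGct
Gde1: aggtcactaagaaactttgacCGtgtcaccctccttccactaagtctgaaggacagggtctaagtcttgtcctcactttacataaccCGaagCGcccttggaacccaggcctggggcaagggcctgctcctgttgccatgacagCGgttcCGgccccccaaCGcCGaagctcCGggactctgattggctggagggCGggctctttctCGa
The stretch of Gdpd3 held 1 CpG in 170 bases, that of Gdpd1 14 in 119 bases and that of Gde1 10 in 210 bases. Counted over the full 250 bases upstream of each start, Gdpd3 had 6 CpG, equal to the median of 32841 mouse promoters, against 18 for Gdpd1 and 14 for Gde1. Short motifs were searched on both strands of those 250 bases. The letters TATAAA stood in 12.4% of all promoters, CCAAT in 33.9%, GGGCGG in 32.7% and CACGTG in 6.02%. The window of Gde1 held CCAAT and also GGGCGG, and none of the 4 motifs was found in those of Gdpd3 and Gdpd1. Among the 10167 tested genes with a promoter record, 2095 had at most 6 CpG and 5746 had at least 14. Over the 18 libraries on the log2(FPKM + 1) scale, the first set had a median range of 0.89 and the second 0.57. On that scale Gdpd1, with 18 CpG, had a range of 0.89, and Gde1, with 14, had 0.30. The part of CpG content in the spread of these genes was not tested.

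Before the members' values, some libraries stood apart. Transcripts of pancreatic acinar cells took 3.26% of the summed FPKM in replicate 1 of HS_AOS and 2.92% in replicate 1 of HS, and neutrophil transcripts took 1.92% in replicate 1 of control. Several results that rest on these libraries are also given without them, and calls of named genes without them are given at the end. All 14 spleen and haematopoietic marker genes were detected. Summed FPKM per library ran from 666441 to 831448, and 12221 to 12898 genes reached 1 FPKM. Absolute depth is unknown, so the counting error of low values cannot be given.

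Gdpd3 was the member that varied. Its level was 0.47, 0.39 and 0.24 FPKM in replicates 1, 2 and 3 of HS_AOSFMT, and 5.61, 105 and 76 FPKM in those of HS_conFMT. Replicates 1, 2 and 3 of HS_AOS had 0.45, 0.31 and 0.45 FPKM, and those of HS had 24.7, 2.1 and 50.6 FPKM. In AOS the levels were 11.1, 3.44 and 19.7 FPKM, and in control 0.43, 0.66 and 0.38 FPKM. Every library of HS_conFMT, HS and AOS thus lay above every library of HS_AOSFMT, HS_AOS and control. In bulk tissue, fewer cells of an expressing type and less RNA per cell cannot be told apart.

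**Figure D1:**
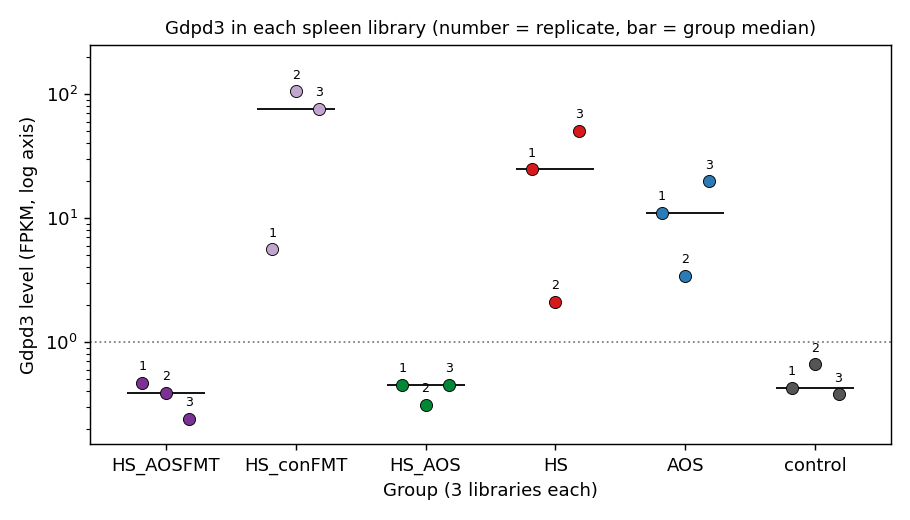
Gdpd3 level in FPKM on a log axis for each of the 18 spleen libraries by group, with the replicate number beside each point and a bar at the group median. The 9 libraries of HS_conFMT, HS and AOS sit between 2.1 and 105 FPKM, and the 9 of HS_AOSFMT, HS_AOS and control between 0.24 and 0.66, below the dotted line at 1 FPKM.

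The line at 1 FPKM left 9 libraries on each side and split 0 groups. Within the low side the highest library was 2.75 times the lowest, and within the high side 50.1 times. The closest libraries across the line were replicate 2 of HS at 2.1 FPKM and replicate 2 of control at 0.66 FPKM, 3.18-fold apart. By ratio this was the widest step between neighbouring libraries in the ordered series, and the next was 2.04-fold, between 24.7 and 50.6 FPKM in replicates 1 and 3 of HS. On a log scale with an added pseudocount, the place of the widest gap depended on that pseudocount. With 0.1 FPKM it was 1.53, between the same libraries of HS and control, and made up 18.5% of the range of the gene. With 1 FPKM it was 1.00, between replicates 1 and 3 of HS, and made up 15.6% of the range. The median share over all 12969 tested genes was 22.2% with 0.1 FPKM and 22.1% with 1 FPKM.

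Group means in descending order were 62.3 ± 51.2 FPKM in HS_conFMT, 25.8 ± 24.2 in HS, 11.4 ± 8.15 in AOS, 0.490 ± 0.149 in control, 0.403 ± 0.0808 in HS_AOS and 0.367 ± 0.117 in HS_AOSFMT (SD, n = 3 each). Of the neighbours in this order, AOS and control were the pair without shared values; the other 4 pairs overlapped. The order within the 3 high groups, and within the 3 low groups, was therefore within the spread of their libraries.

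On the log2(FPKM + 1) scale, HS stood 3.43 above control and AOS stood 2.80 above control. HS_AOS stood at -3.51 and HS_AOSFMT at -3.55 relative to HS, contrasts that share the HS libraries. HS_AOSFMT stood at -4.79 relative to HS_conFMT. HS_conFMT stood 1.24 above HS with overlapping libraries, and that difference was 0.05 without replicate 2 of HS, 0.49 without replicate 2 of HS_conFMT and 2.50 without replicate 1 of HS_conFMT. With replicate 1 of HS, HS_AOS and control set aside, the differences were 3.06 for HS against control, -3.20 for HS_AOS against HS and -3.21 for HS_AOSFMT against HS.

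Groups without shared values were not rare across the transcriptome, and since Gdpd3 was chosen from these contrasts the shares below only give the scale. All libraries of HS lay above all of control for 3.89% of tested genes, and all of AOS above all of control for 11.6%. All libraries of HS_AOS lay below all of HS for 2.74%, all of HS_AOSFMT below all of HS for 7.64%, and all of HS_AOSFMT below all of HS_conFMT for 7.27%. A split of any 3 whole groups above the other 3 was seen in 41 genes, 0.316% of those tested. The split with HS_conFMT, HS and AOS on the high side was seen in 1 gene, Gdpd3 itself (0.00771%). Among the 41 genes were the endoplasmic reticulum chaperone gene Hsp90b1, with means of 500, 281, 272, 392, 531 and 305 FPKM in HS_AOSFMT, HS_conFMT, HS_AOS, HS, AOS and control, and the clock repressor gene Nr1d1; both had other groups on the high side.

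Between the 6 groups lay 76.0% of the variance of Gdpd3, more than for 96.0% of tested genes (median 42.1%). Its SD within groups was 1.33 on the log2 scale, the rank 49 of 12969 genes, against a median of 0.151. Its range of 6.42 on that scale had rank 29, and the highest library held 438 times the level of the lowest. Both its spread within groups and its share between groups were thus high. The gene was chosen because its level differed widely between these libraries, so these ranks are only a description.

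**Figure D2:**
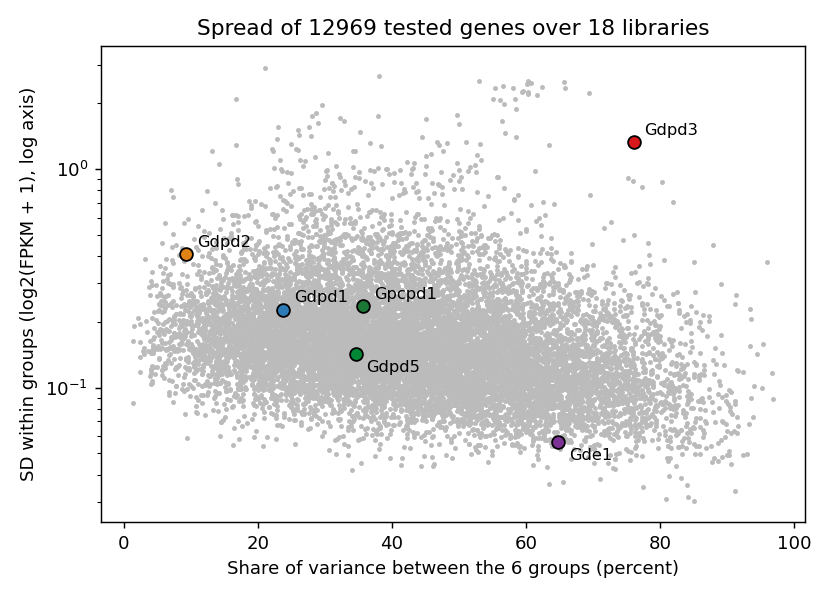
SD within groups on the log2(FPKM + 1) scale (log axis) against the share of variance between the 6 groups in percent, for 12969 tested genes in grey and the glycerophosphodiesterase genes in colour. Gdpd3 lies at 76.0% and 1.33, and Gde1 at 64.8% with an SD of 0.0563.

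Gdpd1, the other lysophospholipase D of the 4, had low and much steadier levels, from 1.81 to 4.2 FPKM over the 18 libraries. Its replicates 1, 2 and 3 had 3.08, 3.07 and 3.62 FPKM in HS_AOSFMT and 2.92, 1.81 and 2.76 FPKM in HS_conFMT. In HS_AOS the values were 2.8, 2.21 and 4.2 FPKM, in HS 3.11, 3.46 and 2.92, in AOS 2.25, 3.81 and 2.44, and in control 2.96, 3.32 and 3.3. HS_conFMT was the group with the lowest mean, 2.50 ± 0.600 FPKM, and HS_AOSFMT the one with the highest, 3.26 ± 0.315 (SD, n = 3). These libraries did not overlap, a split seen in this direction for 21.5% of tested genes. The log2 difference of HS_AOSFMT against HS_conFMT was 0.30 (SE 0.177) and did not pass limma's test (adjusted p = 0.335). Over all 6 groups limma's F test gave Gdpd1 an adjusted p of 0.672, and that test called 5.08% of genes.

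Gde1 was the most abundant and the steadiest of the 4, from 31.2 to 38.5 FPKM. Replicates 1, 2 and 3 had 35.4, 36 and 38.5 FPKM in HS_AOSFMT, 33.5, 32.9 and 34.4 FPKM in HS_conFMT, 31.5, 32.9 and 31.2 FPKM in HS_AOS, 34.6, 31.5 and 31.2 FPKM in HS, 32.6, 35.8 and 34.0 FPKM in AOS, and 34.8, 33.2 and 33.4 FPKM in control. HS_AOSFMT had the highest mean, 36.6 ± 1.65 FPKM against 32.4 ± 1.93 FPKM in HS (SD, n = 3 each), and these libraries did not overlap, which held in this direction for 30.8% of tested genes. The log2 change was 0.17 (SE 0.0613, unadjusted p = 0.0128 and adjusted p = 0.0853 by limma), which missed the threshold of 0.05 in a contrast where 9.23% of genes passed it. The median change of all tested genes in that contrast was 0.10. With libraries scaled to the same median the log2 change was 0.07 (adjusted p = 0.549 by limma). Against HS_conFMT the libraries of HS_AOSFMT did not overlap either, as for 21.5% of tested genes in this direction (log2 difference 0.12, adjusted p = 0.252 by limma). The F test over the groups gave an adjusted p of 0.243. The SD within groups was 0.0563 on the log2 scale, lower than for all but 1.06% of tested genes.

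Gdpd5 was low, from 1.31 to 2.56 FPKM. Replicates 1, 2 and 3 had 2.47, 2.27 and 2.01 FPKM in HS_AOSFMT, 1.82, 2.48 and 2.15 FPKM in HS_conFMT, 2.2, 2.56 and 2.47 FPKM in HS_AOS, 1.78, 2.26 and 2.33 FPKM in HS, 2.05, 2.18 and 2.14 FPKM in AOS, and 1.31, 2 and 2.18 FPKM in control. Replicate 1 of control, the library rich in neutrophil transcripts, was the lowest of the 18, and the gap to the next library made up 42.8% of the range of the gene. AOS and control overlapped, with a log2 difference of 0.16 (SE 0.123, adjusted p = 0.630 by limma) that was 0.02 with the 3 outlying libraries set aside. The F test over the groups gave an adjusted p of 0.544.

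In 18 tests, 6 contrasts for each of Gdpd1, Gdpd5 and Gde1, limma called 0, and 1 had an unadjusted p under 0.05. The differences ran from -0.26 to 0.30 on the log2 scale, and the smallest adjusted p was 0.0853. The same contrasts called 0.0154% of all tested genes in HS against control, 0% in HS_AOS against HS (1 gene in a fit of these groups alone, with or without a block on replicate number), 0.00771% in HS_conFMT against HS, 5.85% in HS_AOSFMT against HS_conFMT and 0.00771% in AOS against control. Without shared values were 3 of the 18 pairs of groups, those already given for Gdpd1 and Gde1, beside shares of all tested genes of 21.5% for HS_AOSFMT above HS_conFMT and 30.8% for HS_AOSFMT above HS. The effect of AOS under diet and STZ minus its effect without them, a test of their difference, had adjusted p-values by limma of 0.971 for Gdpd1, 0.988 for Gdpd5 and 0.964 for Gde1.

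**Figure D3:**
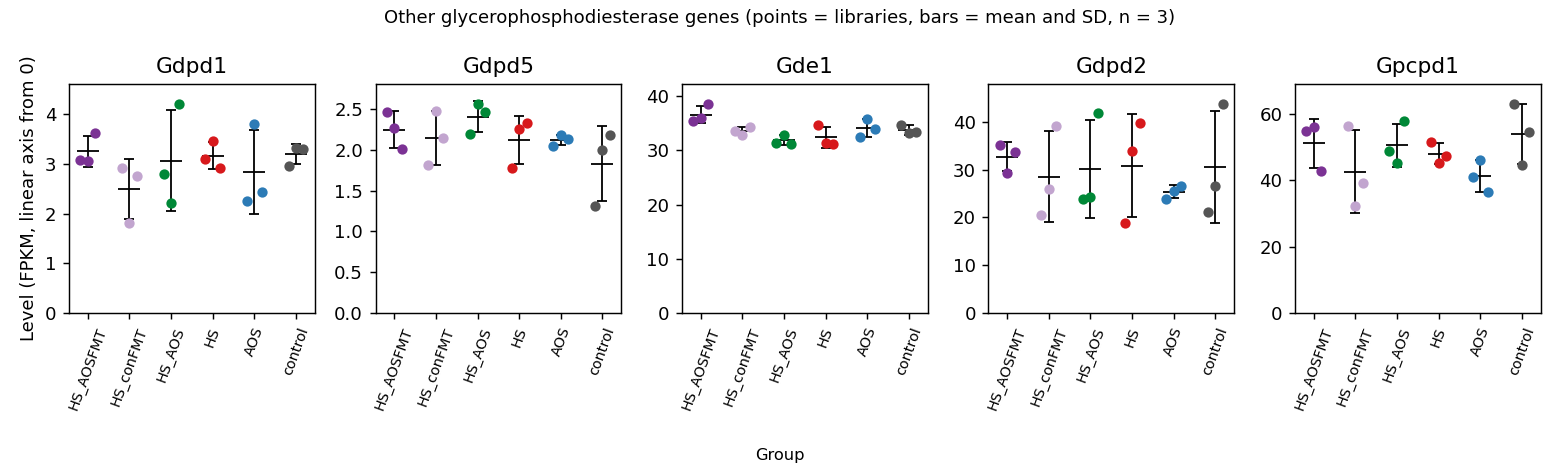
Levels in FPKM (linear axes from 0) of Gdpd1, Gdpd5, Gde1, Gdpd2 and Gpcpd1 in each library by group, with mean and SD (n = 3). Gde1 stays between 31.2 and 38.5 FPKM in all 18 libraries, and Gdpd2 has 39.2 to 43.7 FPKM in replicate 3 of HS_conFMT, HS_AOS, HS and control.

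The remaining family genes in the table were Gdpd2, Gpcpd1 and Gdpd4. Gdpd2, which encodes the cell surface enzyme GDE3 known from bone-forming cells, ranged from 18.9 to 43.7 FPKM and reached its highest level in replicate 3 of HS_conFMT, HS_AOS, HS and control. Its share of variance between groups was 9.29%, and its F test gave an adjusted p of 0.931. Gpcpd1, the cytosolic enzyme that hydrolyses glycerophosphocholine, ranged from 32.1 to 62.9 FPKM (adjusted p = 0.410 by limma's F test), and Gdpd4 was listed at 0 to 0.08 FPKM and was not tested. None of the 5 tested relatives of Gdpd3 had a high positive correlation with it over the 18 libraries, and Gpcpd1 and Gdpd1 varied inversely to it. Pearson's r with Gdpd3 on the log2 scale was 0.06 for Gdpd5, -0.06 for Gdpd2, -0.19 for Gde1, -0.52 for Gdpd1 and -0.62 for Gpcpd1, over libraries that share their groups. Among the 12969 tested genes (median r -0.02), 12932 had a higher r than Gpcpd1 and 12810 a higher r than Gdpd1. Spearman's rho was -0.43 for Gpcpd1 and -0.38 for Gdpd1. With group means removed, r was -0.49 for Gpcpd1, -0.48 for Gdpd1, -0.07 for Gde1, 0.19 for Gdpd2 and 0.22 for Gdpd5. FPKM is scaled per length, so levels could be set side by side between genes as far as the inferred unit holds. In HS_conFMT the mean of Gdpd3, 62.3 FPKM, exceeded that of Gde1, 33.6 FPKM, whereas in HS_AOSFMT Gdpd3 had 0.367 FPKM and Gde1 36.6 FPKM. In replicate 1 of HS_conFMT the order was the reverse, with 5.61 FPKM of Gdpd3 and 33.5 FPKM of Gde1. The Gdpd3 means of HS (25.8 FPKM) and AOS (11.4 FPKM) were also below those of Gde1 (32.4 and 34.1 FPKM).

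Genes around Gdpd3 on chromosome 7 did not share its range. Of the 20 nearest protein-coding genes, 10 on each side, 16 were tested, and their highest library held 1.29 to 5.56 times the level of the lowest (median 1.45). Mapk3, which encodes the kinase ERK1 and starts at -6.79 kb from Gdpd3, ranged from 53.7 to 88.7 FPKM (r = -0.34 with Gdpd3). Ypel3, which starts at 10.5 kb from it, ranged from 112 to 149 FPKM (r = 0.16), and the transcription factor gene Tbx6 from 3.01 to 5.87 FPKM (r = 0.48). The widest of the neighbours was Nupr1, a stress-induced chromatin protein gene, from 14.6 to 80.9 FPKM (r = -0.04). Over the 16 tested neighbours r ran from -0.34 to 0.55. It was highest for Ino80e (r = 0.55, 20.5 to 26.4 FPKM) and Slx1b (r = 0.54, 2.92 to 4.12 FPKM). Over a longer list of 24 tested genes from this region, limma called 3 in HS_AOSFMT against HS, where 9.23% of all tested genes were called; 2 rose and 1 fell. Those that rose were Sult1a1, a phenol sulfotransferase gene (12.2 ± 2.81 FPKM in HS_AOSFMT and 6.99 ± 1.72 FPKM in HS, adjusted p = 0.0308), and Pagr1a (53.0 ± 0.894 FPKM in HS_AOSFMT and 43.6 ± 4.20 FPKM in HS, adjusted p = 0.0258). Both lost their calls without any 1 of several libraries: Pagr1a without replicates 1, 2 or 3 of HS_AOSFMT or 1 or 3 of HS, and Sult1a1 without replicates 1 or 3 of HS_AOSFMT or of HS. Both calls also ended with libraries scaled to the same median and in fits of the 2 groups alone. The highest adjusted p without 1 library was 0.115 for Pagr1a and 0.133 for Sult1a1. The gene that fell was Zg16, which encodes a secretory granule protein of pancreatic acinar cells, at 1.17 ± 0.479 FPKM in HS_AOSFMT and 195 ± 219 FPKM in HS (log2 change -5.89, adjusted p = 0.0442 by limma). The call of Zg16 ended without any 1 of the 6 libraries, and the summed acinar markers of those groups are given below.

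**Figure D4:**
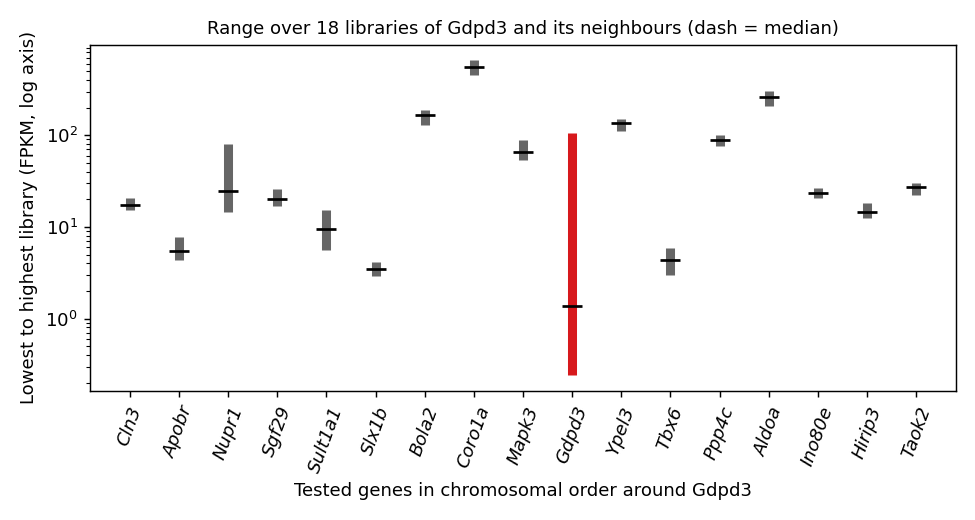
Lowest to highest library in FPKM on a log axis, with a dash at the median, for Gdpd3 (red) and its 16 tested protein-coding neighbours in chromosomal order. Gdpd3 spans 0.24 to 105 FPKM, whereas the widest neighbour, Nupr1, spans 14.6 to 80.9.

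One overlapping gene bears on what the Gdpd3 value counts. Gm9967, on the minus strand from 126768082 to 126776818, overlaps Gdpd3, and 198 bases of the 1148-base Gdpd3 transcript align to it at 99.5% identity. Gm9967 itself was not analysed here. It was the 1 other gene whose transcripts aligned to that of Gdpd3. Whether reads were assigned by strand is not given in the sources used here. Over the shared bases, reads from Gdpd3 and from its antisense partner therefore cannot be told apart. The same holds for Gde1, which shares 229 bases with Gm45236 on the opposite strand.

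Genes of the pathways around these enzymes were described next. Of the 19 tested genes that make, remove or sense lysophosphatidic acid, 2 rose in HS_AOSFMT against HS and 0 fell, in a contrast in which 8.08% of all tested genes rose and 1.15% fell. Lpar6, a lysophosphatidic acid receptor gene, had 27.4, 24.0 and 26.3 FPKM in HS_AOSFMT, 13.7, 15.3 and 15.9 FPKM in HS_conFMT and 15.4, 17.2 and 16.7 FPKM in HS. No library of HS_AOSFMT overlapped either group. The log2 change was 0.62 (SE 0.0959, adjusted p = 0.00364) against HS and 0.75 (adjusted p = 0.000794) against HS_conFMT by limma. Both calls held without any 1 library of the 2 groups compared. Lpar6 was also called by the F test over the groups (adjusted p = 0.00537), a call that ended without replicate 3 of HS_AOSFMT (adjusted p = 0.0514). Of 14 markers of spleen cell types, 1 was called in each of these contrasts. Over all tested genes the called share was 9.23% against HS and 5.85% against HS_conFMT. Cd3g, a T cell marker, averaged 119 ± 13.0 FPKM in HS_AOSFMT and 71.6 ± 11.2 FPKM in HS (log2 change 0.73, adjusted p = 0.0235 by limma). Vcam1, an adhesion molecule gene of stromal cells and macrophages, averaged 132 ± 13.3 FPKM in HS_AOSFMT and 92.4 ± 7.94 FPKM in HS_conFMT (log2 change 0.51, adjusted p = 0.0444 by limma). The call of Cd3g ended without replicates 1 or 3 of HS_AOSFMT or of HS (highest adjusted p 0.0955), and that of Vcam1 without replicates 1, 2 or 3 of HS_AOSFMT or 1 or 3 of HS_conFMT (highest adjusted p 0.161), with no filter, with libraries scaled to the same median and with the 2 groups alone. Their part in the Lpar6 result was not tested. Acp6, a phosphatase of lysophosphatidic acid, was higher too, at 18.3 ± 0.801 FPKM in HS_AOSFMT and 14.1 ± 1.42 FPKM in HS (log2 change 0.36, adjusted p = 0.0343). That call ended when libraries were scaled to the same median and without replicates 1, 2 or 3 of HS_AOSFMT or 1 or 3 of HS (highest adjusted p 0.144). Its call against HS_conFMT (adjusted p = 0.0491) was lost under 9 of 13 alternatives. Enpp2, the gene of autotaxin, the main secreted lysophospholipase D, ranged from 36.6 to 62.1 FPKM and was not called by the F test (adjusted p = 0.865). The median change of the list was 0.13 in HS_AOSFMT against HS, beside 0.10 over all tested genes.

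Of 21 tested genes of glycerophosphocholine and phosphatidylcholine turnover, 5 rose in HS_AOSFMT against HS and 0 fell, beside 8.08% and 1.15% of all tested genes. Cept1, a choline and ethanolamine phosphotransferase gene, had 57.2, 47.9 and 51.9 FPKM in HS_AOSFMT and 34.9, 37.2 and 35.3 FPKM in HS. The lysophospholipase gene Pnpla7 had 14.9, 13.3 and 14.7 FPKM in HS_AOSFMT and 9.57, 10.4 and 10.4 FPKM in HS. Neither gene overlapped between these groups. The log2 changes were 0.53 for Cept1 (adjusted p = 0.00733) and 0.46 for Pnpla7 (adjusted p = 0.00749) by limma. Both stayed called in this contrast without any 1 library of these 2 groups. Cept1 and Pnpla7 were also called by limma's F test over the groups (adjusted p = 0.0216 for each). Those calls ended without replicate 1, 2 or 3 of HS_AOSFMT, and with replicate 1 of HS, HS_AOS and control set aside. Against HS_conFMT the call of Pnpla7 (adjusted p = 0.0373 by limma) ended under 7 of 13 alternatives. That of Cept1 (adjusted p = 0.00669 by limma) ended with the 2 groups alone. Lypla1, an acyl-protein thioesterase with lysophospholipase activity, averaged 37.5 ± 2.87 FPKM in HS_AOSFMT and 28.3 ± 1.20 FPKM in HS (adjusted p = 0.0233). The 2 further genes called were Chka, a choline kinase gene (adjusted p = 0.0453), whose call ended without any 1 of the 6 libraries, and Lpcat2, a lysophosphatidylcholine acyltransferase gene (adjusted p = 0.0396), whose call ended without replicate 1 or 3 of HS_AOSFMT or replicate 1 or 2 of HS. The call of Lypla1 ended without replicate 1 or 2 of HS_AOSFMT or replicate 1 or 3 of HS (highest adjusted p 0.101). The list's median change was 0.13.

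Of 8 tested genes of N-acylethanolamine and endocannabinoid metabolism, 0 rose and 1 fell in HS_AOSFMT against HS, where 8.08% of all tested genes rose and 1.15% fell. Abhd4, a lipase of the route to N-acylethanolamines that precedes the step of Gde1, averaged 17.4 ± 0.501 FPKM in HS_AOSFMT and 23.0 ± 0.356 FPKM in HS (log2 change -0.39, adjusted p = 0.0183 by limma). That call ended without replicates 1, 2 or 3 of HS_AOSFMT or 1 or 3 of HS (highest adjusted p 0.0657). Of 5 tested genes for substrates and enzymes of the glycosylphosphatidylinositol anchor linked with Gdpd5, limma called 0 in this contrast, and Reck ranged from 2.91 to 4.82 FPKM. In HS against control, HS_AOS against HS, HS_conFMT against HS and AOS against control, limma called 0 members of these 4 lists. The share of haemoglobin transcripts was 12.9% to 17.6% in HS_AOSFMT libraries and 26.8% to 29.1% in HS libraries, and that of acinar transcripts 0.00288% to 0.0105% in HS_AOSFMT and 0.325% to 2.92% in HS. Their part in the changes of these lists was not tested.

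Over all 12492 genes compared, Sspn, which encodes the membrane protein sarcospan, had the pattern most like that of Gdpd3 (Pearson's r = 0.78 over 18 libraries on the log2 scale, Spearman's rho = 0.80). Its means were 1.69 FPKM in HS_AOSFMT, 4.41 in HS_conFMT, 2.71 in HS_AOS, 3.17 in HS, 3.80 in AOS and 2.27 in control. Its 18 libraries lay between 1.39 and 6.33 FPKM, a far smaller range than that of Gdpd3. Next came Setdb2 (r = 0.75), Insm1 (0.74), Sf3a2 (0.71) and Fscn1 (0.70). Stag1 (-0.76), Lipt2 (-0.75), Suco (-0.74) and Fam161a (-0.73) were among those with the lowest r. With group means removed, Zfp433 (r = 0.87) and Slc25a22 (0.85) were highest and Cbr1 (-0.84) lowest. Zfp433 had a rho of -0.09 with Gdpd3 over the unadjusted 18 libraries.

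Marker genes of other cell types were set beside Gdpd3. All 16 acinar, 10 adipocyte, 8 epithelial and 11 neutrophil markers were above 0 in at least 1 library. Summed acinar markers took 0.00288% to 0.0105% of FPKM in HS_AOSFMT, 0.0115% to 0.559% in HS_conFMT, 0.0645% to 3.26% in HS_AOS, 0.325% to 2.92% in HS, 0.0077% to 0.128% in AOS and 0.00388% to 0.295% in control. HS_AOS 1, with the highest acinar sum, had 0.45 FPKM of Gdpd3, and HS_conFMT 2, with the highest Gdpd3, had an acinar sum of 77.3 FPKM, lower than that of every HS and HS_AOS library. Pearson's r of Gdpd3 with the summed markers was 0.22 for acinar, -0.09 for adipocyte, -0.07 for epithelial and -0.23 for neutrophil genes. Of 4 tested epithelial markers, limma's F test called 1, Epcam (adjusted p = 0.0289), beside 5.08% of all tested genes. Its means were 3.97 FPKM in HS_AOSFMT, 3.10 in HS_conFMT, 2.74 in HS_AOS, 3.49 in HS, 5.88 in AOS and 2.20 in control. The part of these cell types in the Gdpd3 levels was not tested.

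**Figure D5:**
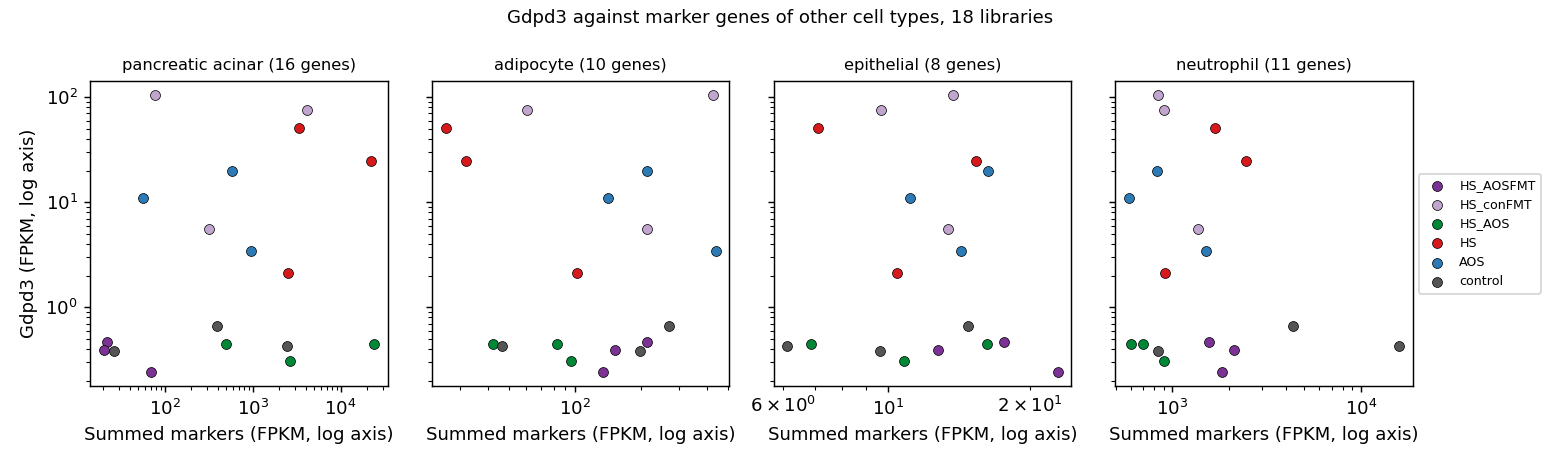
Gdpd3 in FPKM against the summed FPKM of acinar, adipocyte, epithelial and neutrophil markers (log axes) in the 18 libraries, coloured by group. Libraries with Gdpd3 under 1 FPKM have acinar sums from 20.4 to 24208 FPKM, and Pearson's r runs from -0.23 to 0.22.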

How the data were processed

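Spleen RNA of 18 libraries was made into standard Illumina libraries and sequenced, per the labels' protocols. Reads were aligned with Bowtie 0.12.2 to mm10, per the submitters' processing notes; the sources used here do not name the counter, annotation or filters. The deposited values have 2 decimals and were read as FPKM, scaled by the authors per transcript length and library total; the unit is inferred from the values, since the file does not name it. The file holds no counts, so depth is unknown. Within groups Spearman correlations across genes were 0.950 to 0.989, and 0 pairs of libraries were identical.

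The 12969 genes that reached 1 FPKM in 3 or more libraries were fitted on log2(FPKM + 1) by limma 3.58.1 in R 4.3.3, with group as the factor, over all 18 libraries, with trended and robust eBayes (12 residual and 3.38 prior degrees of freedom). Fold changes on this scale understate the change of low genes. P-values are two-sided and Benjamini-Hochberg adjusted over all tested genes, and a gene is called where its adjusted p is under 0.05. The fit was tested on simulated data. The members, lists and tests were chosen with earlier results of these data known, and Gdpd3 was given no test. The text names the 4 members, the other family genes, up to 3 genes of each list with the smallest p, genes among the 5 highest and 5 lowest r with Gdpd3 (1 of them is not reported here), and neighbours; Hsp90b1, Nr1d1, Enpp2, Reck, Chka, Lpcat2 and Zg16 were named after their values were seen. Alternatives were a pseudocount of 0.1, no filter or a filter of 9 libraries, median scaling, a block on replicate number, the 2 groups alone and each library left out. For a contrast, only libraries of its 2 groups were left out. Setting aside replicate 1 of HS, HS_AOS and control, and blocking on replicate number in HS_AOS and HS alone, were chosen after seeing the data. Same-numbered libraries of HS_AOS and HS deviated together from their group means (correlations of 0.487, 0.287 and 0.372 across genes), a pairing read from the data and not from the labels, and 1 of 15 pairs of groups had all 3 over 0.1. Python 3.11.15 (pandas 2.3.3, numpy 2.4.6) and BLAST 2.17.0 were used. In the table, 26 symbols had been turned into dates and 3 stood on more than 1 line; all lines were kept.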

Additional observations from a re-analysis of the deposited data

Results flagged for a closer look

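The difference in Gdpd3 between groups with and without AOS had opposite signs with and without diet and STZ. Given with diet and STZ, all 3 HS_AOS libraries (0.31 to 0.45 FPKM) lay below all 3 HS libraries (2.1 to 50.6 FPKM). Given alone, all 3 AOS libraries (3.44 to 19.7 FPKM) lay above all 3 control libraries (0.38 to 0.66 FPKM). The log2 difference of HS_AOS from HS minus that of AOS from control was -6.32. This value was not tested, because the gene was chosen for this pattern. The labels do not say whether each library is a separate animal. An effect of AOS therefore cannot be told apart from differences between animals of this outbred stock.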

How the results depend on the processing

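Gdpd3 kept the direction of its 6 differences under all alternatives run. A pseudocount of 0.1 moved them by more than the SD within groups for HS_AOSFMT against HS (-4.94) and HS_AOSFMT against HS_conFMT (-6.29). Leaving out 1 library gave 2.59 to 4.62 for HS against control, -4.70 to -2.67 for HS_AOS against HS, -4.74 to -2.71 for HS_AOSFMT against HS, 0.05 to 2.50 for HS_conFMT against HS, -6.05 to -4.05 for HS_AOSFMT against HS_conFMT and 2.30 to 3.41 for AOS against control. The share of variance between groups was 72.8% to 86.8% and the largest gap 1.00 to 1.65 in those fits. Of the 111 tests of Gdpd1, Gdpd5 and Gde1 under alternatives, 0 passed the threshold (smallest adjusted p 0.0847), and 0 reversed. Sspn kept an r of 0.71 to 0.82 without any 1 library. Without replicate 1 of HS, HS_AOS and control, the calls of Lypla1, Acp6, Abhd4, Pagr1a, Sult1a1, Chka, Lpcat2 and Zg16 in HS_AOSFMT against HS ended. Their adjusted p by limma ran from 0.068 for Abhd4 to 0.164 for Lpcat2. In that fit and contrast Lpar6 (adjusted p = 0.0155), Cept1 (0.0339), Pnpla7 (0.0377) and Cd3g (0.0316) stayed called by limma.

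Counts of called genes over the whole table moved more. Leaving out 1 library gave 81 to 1525 for the F test (659 with all), 203 to 751 for HS_AOSFMT against HS (1197), 199 to 1201 for HS_AOSFMT against HS_conFMT (759), 3 to 20 for HS against control (2), 0 to 3 for HS_AOS against HS (0), 0 in each for HS_conFMT against HS (1) and 1 to 49 for AOS against control (1). The lowest F count came without replicate 3 of HS_AOSFMT, and the highest counts of the F test, of HS against control and of AOS against control came without replicate 3 of control. With replicate 1 of HS, HS_AOS and control set aside, limma called 388 in HS_AOSFMT against HS, 956 against HS_conFMT, 4 in HS against control, 5 in HS_AOS against HS, 0 in HS_conFMT against HS and 465 by the F test. With the 2 groups alone it called 176 in HS_AOSFMT against HS_conFMT, 0 in HS against control, 1 in HS_AOS against HS (also 1 with the replicate block) and 0 in HS_conFMT against HS. HS against control had 1 with a pseudocount of 0.1, 8 with no filter and 1 with the filter of 9 libraries, AOS against control had 2, 7 and 0, and HS_conFMT against HS had 2 with no filter. Unadjusted p-values under 0.05 numbered 674 in HS_AOS against HS and 819 in HS_conFMT against HS. The cause of these moves was not tested.

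Over all groups, HS_AOS and HS included, 45 pairs of libraries with the same number had correlations of -0.37 to 0.49. Of these, 15 were over 0.1, and 9 of 18 libraries correlated best with their own number. The highest was replicate 1 of HS_AOS and HS. For HS and control the values were 0.46, 0.02 and 0.28 in replicates 1, 2 and 3. HS_AOS and HS were the 1 pair of groups with all 3 correlations over 0.1. With the replicate block limma called 850 by the F test, 1453 in HS_AOSFMT against HS and 909 in HS_AOSFMT against HS_conFMT. It called 3 in HS against control, 0 in HS_AOS against HS, 0 in HS_conFMT against HS and 1 in AOS against control. The block ended the calls of Chka and Zg16 in HS_AOSFMT against HS (adjusted p 0.0524 and 0.0512 by limma). It ended that of no other gene named here, leaving aside Epcam, whose call was not followed under alternatives. Depth is unknown, so how far counting error reaches the low Gdpd3 levels cannot be stated.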
